A study of Mus musculus with 4 samples.

Results

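The immediate-early and stress transcription genes described here are Fos, Fosb, Jun, Junb, Egr1, Egr2, Egr3, Atf3, Ier2 and Btg2. They were taken by gene symbol and make up 10 of the 11842 named genes with a value on all 4 arrays. The arrays held 43 entries for these genes, an entry being one row of the deposited table, and 41 of them had a value on every array. The 2 without a value on any array were 1 of 11 entries of Fos and 1 of 2 entries of Egr3, so all 10 genes were measured.

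RNA was compared from tissue in and around porous plastic scaffolds implanted for 7 days below the back skin of male C57BL/6 mice aged 8 weeks. The plastic is polyethylene in the study's methods and polystyrene in the title of the series. The scaffolds were non-coated, coated with collagen, or coated with PMB, a phospholipid-like polymer that resists protein and cell attachment and is called MPC in part of the labels, and each kind was studied in 1 mouse. The sources used here do not say which pore size the array scaffolds had. Tissue close to the scaffold was cut out by laser, so each extract held RNA of the scaffold's mixed host cells, and fewer cells of a type and less RNA per cell cannot be told apart. Each of the 2 arrays per coating carried a coated extract against the non-coated one, with Cy5 on the coated extract in replicate 1 and Cy3 in replicate 2. Both arrays of a coating are therefore a dye swap of the same RNA, and they count as 1 replicate. The design allows no test of 1 scaffold kind against another, so p-values are absent.

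Immediate-early genes are transcribed within minutes of a signal such as serum, a growth factor, stretch or injury, from factors already present in the cell, and their mRNAs are short-lived. Fos and Jun family proteins pair through leucine zippers to form AP-1, and Egr proteins bind GC-rich sites through zinc fingers. Atf3 is a related zipper protein induced by many stresses, Ier2 is a growth-factor-induced nuclear protein, and Btg2 is an antiproliferative protein that recruits the mRNA deadenylation complex. In skin wounds these genes are known as an early response, and the tissue here was taken 7 days after implantation.

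Upstream sequences are shown next for Fos, which was lower at the collagen-coated scaffold, and for Jun and Btg2, whose ratios had opposite signs for the coatings. They are the 250 bases before the annotated start, from RefSeq on GRCm38.p6, at chr12:85473640-85473889 (plus strand) for Fos, chr4:95052223-95052472 (minus strand) for Jun and chr1:134079156-134079405 (minus strand) for Btg2. Each is printed along its gene's strand, and capitals mark TGACG, the core of the cyclic AMP response element, the full element TGACGTCA, and TGACATCA, the AP-1-like site known from the Jun promoter.
Fos: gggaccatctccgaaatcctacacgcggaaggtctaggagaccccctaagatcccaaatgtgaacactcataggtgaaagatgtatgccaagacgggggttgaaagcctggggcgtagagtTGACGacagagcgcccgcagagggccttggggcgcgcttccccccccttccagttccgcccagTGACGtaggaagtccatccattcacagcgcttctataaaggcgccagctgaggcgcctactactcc
Jun: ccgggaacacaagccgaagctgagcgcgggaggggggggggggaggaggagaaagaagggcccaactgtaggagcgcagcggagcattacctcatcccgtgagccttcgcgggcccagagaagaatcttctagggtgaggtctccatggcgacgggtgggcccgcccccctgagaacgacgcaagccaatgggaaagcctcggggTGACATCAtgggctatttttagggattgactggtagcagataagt
Btg2: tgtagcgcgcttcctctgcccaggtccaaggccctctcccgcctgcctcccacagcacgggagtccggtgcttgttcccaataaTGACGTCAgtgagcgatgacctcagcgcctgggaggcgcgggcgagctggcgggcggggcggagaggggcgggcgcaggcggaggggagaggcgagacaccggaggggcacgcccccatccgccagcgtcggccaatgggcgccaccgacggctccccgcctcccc

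TGACG was found at -129 and -66 from the Fos start, counting the last upstream base as -1 and giving the first base of the match. The Btg2 window held the whole TGACGTCA at -166, which contains TGACG on both strands. The Jun window held no TGACG and 1 TGACATCA, at -45. Upstream windows were read for 7 of the genes, and TGACG on either strand also occurred in those of Fosb, Junb, Egr2 and Atf3. The Fosb window lies partly inside the gene's annotated span and is not printed. Egr2 was read in 5 windows, all inside its annotated span, so it had more windows for a match than the other genes read. Among all 32851 upstream windows of the same length in the table, 17.8% held TGACG on either strand, 1.55% TGACGTCA and 2.93% TGACATCA. The CArG box, the element bound by serum response factor, occurred in 1.47% of windows and, among the 7 genes read, only upstream of Egr2. Windows of Egr1, Egr3 and Ier2 were not read, and a site more than 250 bases upstream would be missed for any gene. A match is a description of these letters and not a measured site.

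Ratios are given on the log2 scale, with the non-coated extract as the base unless a value is said to lie between the coatings, in which case PMB is the base. Errors (±) are SDs of the 2 dye-swap arrays, a technical error that holds no difference between mice. The table does not state the direction of its ratios, and reading them as Cy5 over Cy3 is an inference on which every sign depends. Read so, Mmp9, Mmp10 and Adamts19 have, in sign and in size, the values that the study printed for coated over non-coated. They are 2.867, 0.605 and -2.714 with collagen, and -0.802, -1.323 and -0.419 with PMB. For Vegfa the study printed values of transcript variant 1, and the mean over all 12 entries has the opposite signs. A gene's ratio is the mean over its entries. A gene was called higher or lower when both arrays gave it one sign and its mean ratio reached 1 in size, which is 2-fold. By array, 52.3% to 60.5% of all entries had a value, and the median of all genes was 0.036 with collagen, 0.022 with PMB and 0.0012 between the coatings.

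At the collagen-coated scaffold the Fos genes were the lowest of the set. Of the 10 genes, 2 were called lower, Fosb and Fos, and 0 higher, where 3.38% of all genes were called lower and 2.21% higher. The median of the set was -0.50, and 8 of 10 genes were below 0, against 44.8% of all genes. At the PMB-coated scaffold 0 were called in either direction, where 1.40% of all genes were called lower and 0.616% higher. The median was -0.44, 8 of 10 were below 0 against 46.9% of all genes, and no member was further from 0 than Egr3 at -0.68. Both ratios share the non-coated extract, so the coatings are not independent comparisons.

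**Figure D1:**
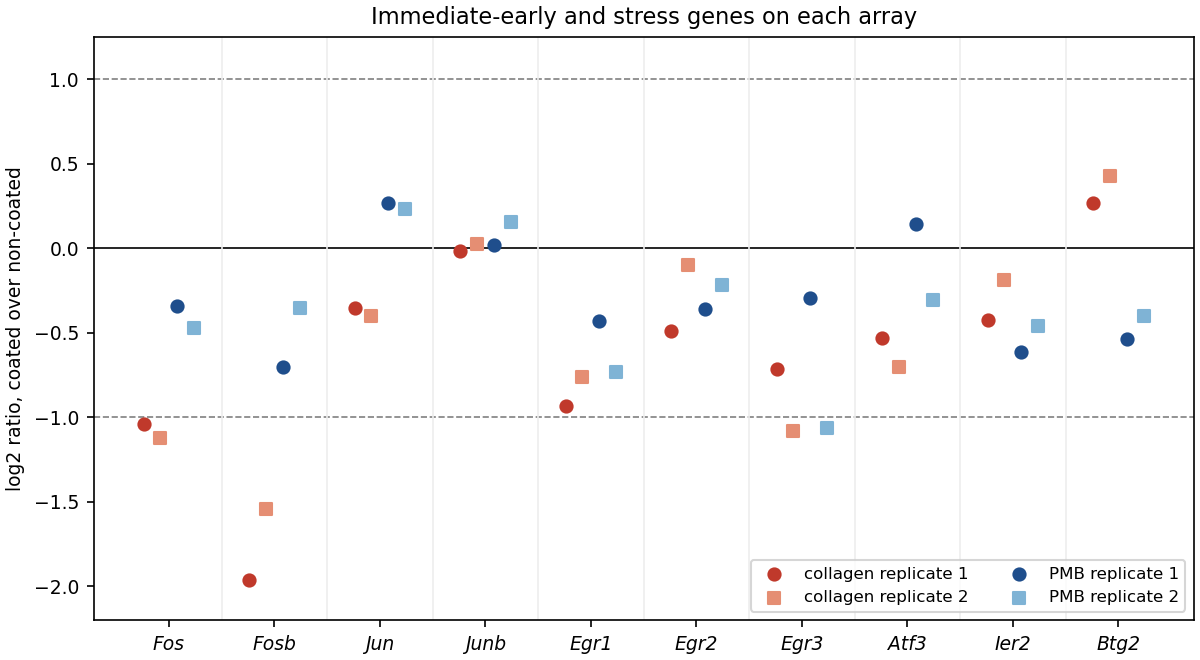
Log2 ratio of coated over non-coated for each gene on each of the 4 arrays (circles, replicate 1; squares, replicate 2; reds, collagen; blues, PMB), with dashed lines at 1 and -1. Fos and Fosb lie below -1 on both collagen arrays, and Jun and Btg2 lie on opposite sides of 0 for the coatings.

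Fos, the founding member of its family and the usual partner of Jun, stood at -1.04 and -1.12 on the collagen arrays and at -0.34 and -0.47 on the PMB arrays. All 4 arrays were below 0, and the collagen arrays lay below both PMB arrays. The means were -1.08 ± 0.059 with collagen, 2.11-fold lower than at the non-coated scaffold, and -0.41 ± 0.093 with PMB. The collagen value just passed the 2-fold line and lay at percentile 2.92 of all genes. Over its 10 entries the ratio ran from -1.10 to -0.95 on collagen replicate 1 and from -1.26 to -1.07 on collagen replicate 2.

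Fosb, whose protein is close to Fos and also pairs with Jun proteins, had the lowest collagen ratio of the set. Its 1 entry read -1.96 and -1.54 on the collagen arrays and -0.70 and -0.35 on the PMB arrays. The collagen arrays were both lower than either PMB array. The mean with collagen was -1.75 ± 0.29, 3.37-fold lower and at percentile 1.18 of all genes, and with PMB -0.53 ± 0.24. Between the coatings Fosb was at -1.23 ± 0.051, 2.34-fold lower with collagen, and it was the only gene of the set called in that comparison, where 3.67% of all genes were called lower and 2.74% higher.

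Jun, the main partner of the Fos proteins, did not follow Fos at the PMB-coated scaffold. Its arrays read -0.36 and -0.40 with collagen and 0.26 and 0.23 with PMB. The coatings thus lay on opposite sides of 0 and did not overlap, with means of -0.38 ± 0.034 and 0.25 ± 0.025 that are 1.30-fold lower and 1.19-fold higher than non-coated. The difference of -0.63 ± 0.0086 had the smallest array SD of the set and stayed below 2-fold. Junb, a Jun relative with weaker activating capacity, had means near 0, at -0.014 and 0.024 on the collagen arrays and 0.021 and 0.15 on the PMB arrays. Its 2 entries had opposite signs on every array, and on PMB replicate 2 they read -0.13 and 0.43.

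The Egr genes, zinc finger factors of growth-factor and injury responses, were below 0 on every array and none was called. With arrays scaled to one spread, Egr1 was called lower with collagen, at -1.11. That scaling raised the number of all genes called lower with collagen from 400 to 588. Egr1, the most studied of them, read -0.94 and -0.76 on the collagen arrays and -0.43 and -0.73 on the PMB arrays, with means of -0.85 ± 0.12 and -0.58 ± 0.21. Egr3, which in lymphocytes acts downstream of antigen receptors, read -0.72 and -1.08 on the collagen arrays and -0.29 and -1.06 on the PMB arrays. Its means of -0.90 ± 0.26 and -0.68 ± 0.54 rest on 1 entry, and the replicate 2 arrays were the lower ones for both coatings. On replicate 2 alone Egr3 passed the 2-fold line for both coatings, so that 3 genes of the set would be called with collagen and 1 with PMB. Over all 11842 genes, the same arrays alone called 424 lower and 320 higher with collagen, and 233 lower and 154 higher with PMB.

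Egr2, known for its part in Schwann cell myelination and in macrophage and T cell activation, was the least reduced of the Egr genes. Its collagen arrays read -0.49 and -0.10 and its PMB arrays -0.36 and -0.22. The collagen mean was -0.30 ± 0.28 and the PMB mean -0.29 ± 0.10, and the difference of -0.0086 ± 0.18 changed sign between the dye orientations. Its 10 entries ran from -0.60 to -0.36 on collagen replicate 1 and from -0.25 to 0.016 on collagen replicate 2. The entries of the 2 collagen arrays did not overlap, while the entries of PMB replicate 2 spanned those of PMB replicate 1.

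Atf3, the stress-induced zipper protein, read -0.53 and -0.70 with collagen and 0.14 and -0.31 with PMB, from 1 entry. The collagen arrays were both lower than the PMB arrays, and the PMB arrays lay on opposite sides of 0. The means were -0.62 ± 0.12 and -0.081 ± 0.32, and the difference of -0.54 ± 0.20 did not reach 2-fold.

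**Figure D2:**
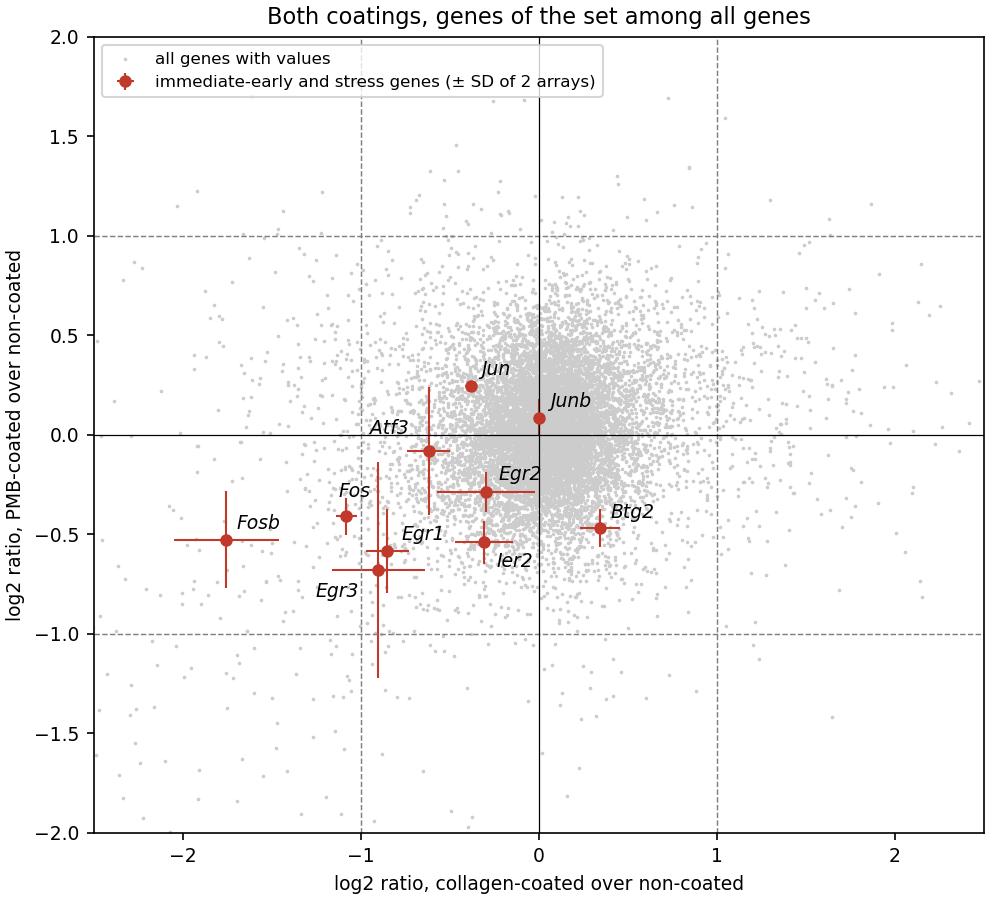
Log2 ratio with PMB against log2 ratio with collagen, for the genes of the set (red, with bars of ± SD of 2 arrays) and all other genes (grey), with 94 genes outside the axes. Of the set, Fosb lies furthest to the left at -1.75, and Btg2 is the only gene of the set clearly right of 0, at 0.35.

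Ier2 and Btg2 were the genes of the set that were higher with collagen than with PMB on both dye orientations. The Ier2 ratio was -0.42 and -0.19 on the collagen arrays and -0.62 and -0.46 on the PMB arrays. All these means over entries were below 0. The means were -0.31 ± 0.17 and -0.54 ± 0.11. Its 2 entries differed by more than the arrays, with collagen means of -0.48 and -0.14 and PMB means of -0.88 and -0.20. The entry nearer 0 read 0.001 on both replicate 2 arrays. Its difference between the coatings was 0.059, against 0.41 for the other entry.

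Btg2 was the member furthest above 0 with collagen, and its PMB ratio was negative. The collagen arrays read 0.27 and 0.43 and the PMB arrays -0.54 and -0.40, so the coatings did not overlap. The means were 0.35 ± 0.11 and -0.47 ± 0.095, and the difference was 0.82 ± 0.018, 1.76-fold higher with collagen and at percentile 95.4 of all genes. The study itself lists Btg2 among genes it picked from these arrays for a difference between the coatings, so its direction is no independent evidence. Of its 3 entries under 1 accession, 2 stood at -0.71 and -0.89 with PMB and the third at 0.19, while all were between 0.30 and 0.38 with collagen. With the median of the entries in place of the mean, the difference was 1.06 and Btg2 was called higher. From the entry with the smallest dye difference, the PMB ratio was 0.19 and the difference 0.11. The sources used here do not say where on the transcript each entry lies.

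Fos, Jun and Egr2 each had 10 entries under 1 accession, which shows how closely the arrays repeated a reading. The SD over the entries of Fos was 0.043 and 0.052 on the collagen arrays and 0.048 and 0.17 on the PMB arrays. For Jun it was 0.055, 0.057, 0.026 and 0.24 in the same order, and for Egr2 0.067, 0.096, 0.045 and 0.23. PMB replicate 2 was the most scattered array for all of them, and Jun ran there from -0.036 to 0.72. Over the 80 genes with 10 such entries, the median SD was 0.062 and 0.097 for the collagen arrays and 0.098 and 0.20 for the PMB arrays. The 4 genes with 1 entry, Fosb, Egr1, Egr3 and Atf3, have no such check.

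**Figure D3:**
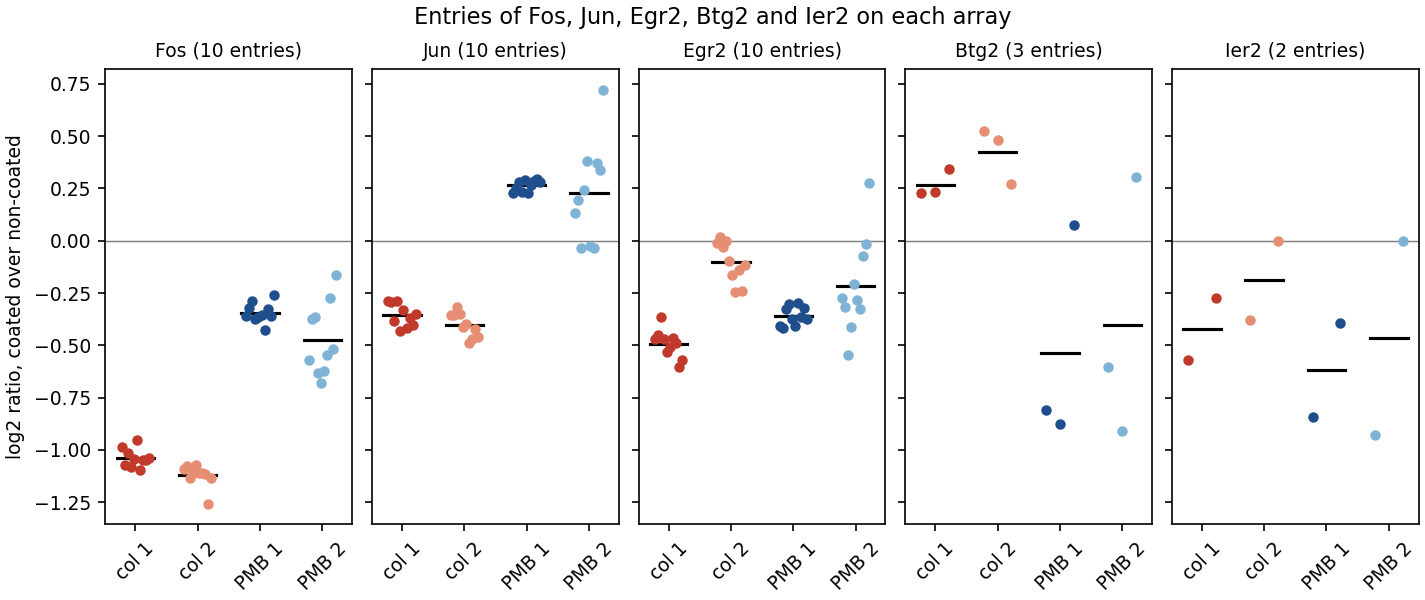
Log2 ratio of coated over non-coated for every entry of Fos, Jun, Egr2, Btg2 and Ier2 on each array (points, entries; black bars, their mean). Entries of Fos and Jun scatter most on PMB replicate 2, and 1 of 3 entries of Btg2 lies apart on both PMB arrays.

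Set side by side, the collagen ratios ran in the order Fosb, Fos, Egr3, Egr1, Atf3, Jun, Ier2, Egr2, Junb and Btg2, from -1.75 to 0.35. Fosb and Fos did not overlap in their arrays. Fos, Egr3 and Egr1 lay within their array spread of a neighbour, and so did Jun, Ier2 and Egr2, while the arrays of Atf3 overlapped with neither neighbour. The PMB ratios ran from Egr3 at -0.68 to Jun at 0.25. Both collagen arrays were below both PMB arrays for 5 of the 10 genes, Fos, Fosb, Jun, Egr1 and Atf3, and above them for 2, Ier2 and Btg2, where 29.7% and 30.7% of all genes were so placed. Egr1 was so placed only narrowly, with a difference between the coatings of -0.27 ± 0.33, and of -0.032 on replicate 2. The median difference between the coatings was -0.24. It was -0.46 on the arrays of replicate 1 and -0.080 on those of replicate 2.

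Genes around the set were grouped by role in 9 lists of 123 genes, of which 107 had values. Among other AP-1 family genes and their partners, 1 of 10 was called higher with collagen, 0 lower, and 0 were called with PMB, with medians of 0.17 and 0.43. The called gene was Jdp2, a zipper protein that represses AP-1 sites, with a collagen ratio of 1.04 ± 0.080 and a PMB ratio of 0.34 ± 0.022. Among Egr corepressors, serum response factor, its cofactors and the transcription factor Creb1, 0 of 8 were called in any comparison, with medians of 0.053 and 0.17. The widest difference between coatings was that of Mrtfb, an actin-controlled cofactor of serum response factor, at -0.60 ± 0.26, followed by the Egr corepressor Nab2 at -0.36 ± 0.15. Among the MAP kinases, which lie upstream of these factors, 0 of 8 were called, with medians of 0.020 and 0.042. Map2k6, which activates p38, stood at 0.59 ± 0.10 with collagen and 0.37 ± 0.13 with PMB.

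Among 22 other immediate-early genes, 2 were called lower and 0 higher with collagen, and 1 lower and 0 higher with PMB, with medians of -0.15 and -0.0078. Klf4, a zinc finger factor of epithelium, macrophages and vessels, was 2.68-fold lower with collagen, at -1.42 ± 0.019, while its PMB ratio was -0.14 ± 0.0071. The polo-like kinase Plk2 was at -1.08 ± 0.030 and -0.35 ± 0.0035. Ccn1 and Ccn2, secreted matrix-associated proteins and known targets of serum response factor and YAP, were low with PMB instead, at -0.89 ± 0.065 and -1.18 ± 0.087, against 0.17 ± 0.21 and 0.031 ± 0.20 with collagen. Between the coatings Ccn1 and Ccn2 were called higher with collagen, at 1.05 ± 0.28 and 1.21 ± 0.29, and Klf4 lower, at -1.29 ± 0.026.

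Among 10 inhibitors that feed back on MAP kinase signalling, 2 were called lower with collagen and 0 with PMB, and 0 higher, with medians of -0.33 and -0.065. Dusp10, a phosphatase of p38 and JNK, had ratios of -1.13 ± 0.069 and -0.073 ± 0.38 for collagen and PMB, and was the only one called between the coatings, at -1.06 ± 0.31. The Egf receptor inhibitor Errfi1 was at -1.08 ± 0.21 and -0.37 ± 0.14. Of 12 ATF4 and C/EBP stress genes 0 were called against non-coated, and Nupr1, a stress-induced chromatin protein, was called lower between the coatings at -1.26 ± 0.20. Of 10 p53 target genes 0 were called, and the widest were the cyclin-dependent kinase inhibitor Cdkn1a at -0.70 ± 0.041 between the coatings and Sesn2, a stress-induced regulator of mTOR signalling, at 0.64 ± 0.11 with PMB. Of 6 relatives and partners of Btg2 in the BTG/TOB family 0 were called, with medians of 0.11 with collagen and -0.20 with PMB. The deadenylase subunit Cnot8 stood at 0.55 ± 0.092 between the coatings and Tob1 at -0.53 ± 0.40 with collagen.

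Known target genes of AP-1 and Egr1 lay on both sides of 0 at the collagen-coated scaffold, 13 above and 8 below. Of 21 measured targets, 7 were called higher and 1 lower with collagen, with a median of 0.49, and 0 higher and 3 lower with PMB, with a median of -0.0205. Mmp9, a gelatin-degrading protease that neutrophils carry in granules, had a collagen ratio of 2.87 ± 0.045 and a PMB ratio of -0.80 ± 0.11. Those of the cytokine Tnf were 1.55 ± 0.10 and 0.68 ± 0.079. The neutrophil chemokine Cxcl2 was at 1.29 ± 0.25 and -0.24 ± 0.35, and the matrix protease Mmp10 at 0.60 ± 0.14 and -1.32 ± 0.0099. The target called lower with collagen was Ccl2, a monocyte chemokine, at -1.20 ± 0.18 and, with PMB, -0.064 ± 0.13. It is named outside the rule of largest size, after its values were seen. Mmp9 and Mmp10 were also picked by the study from these arrays.

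**Figure D4:**
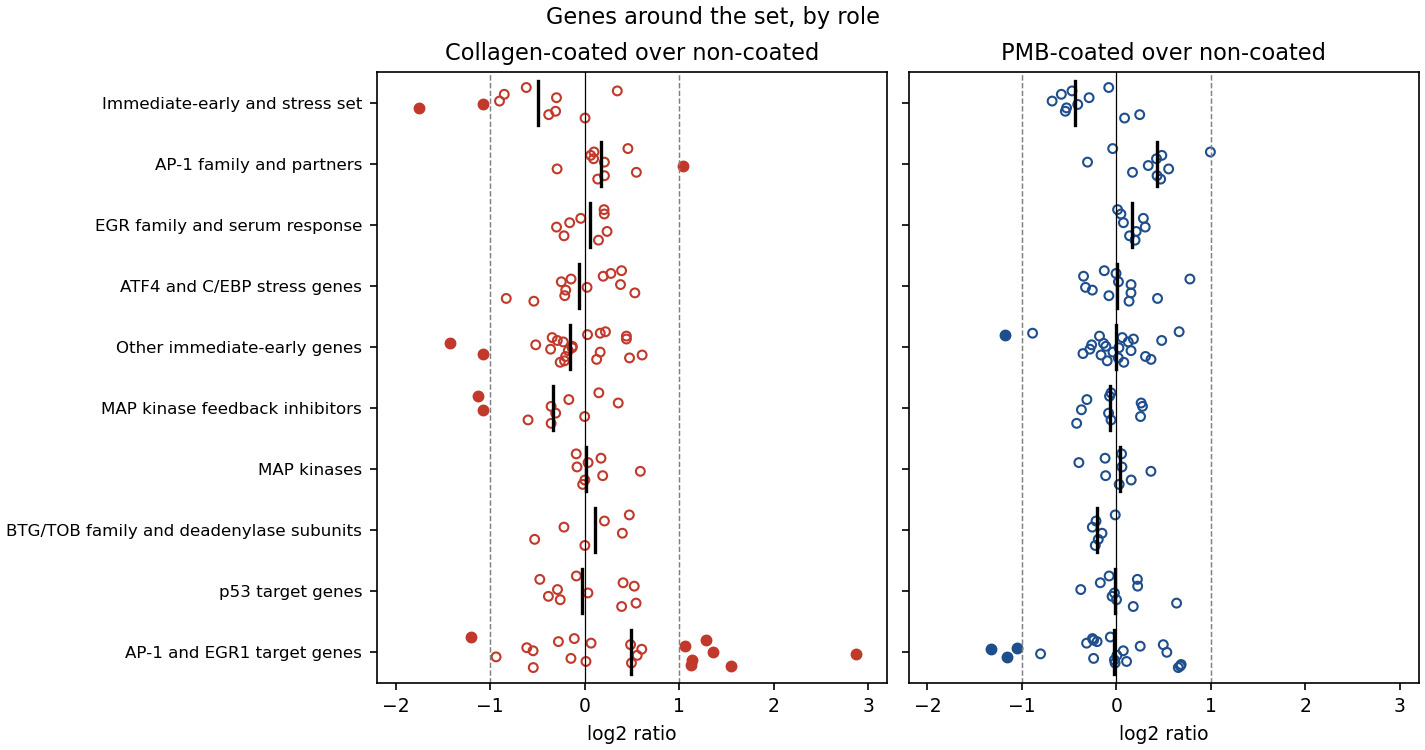
Log2 ratio of coated over non-coated for each measured gene of the set and of the 9 lists around it, with collagen (left) and PMB (right); filled points were called, open points were not, and black bars are list medians. The set has the lowest median in both panels, and the targets of AP-1 and Egr1 hold the most called genes.

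Cell type markers moved with the same extracts. All 10 skeletal muscle markers were called lower with both coatings, with medians of -2.86 with collagen and -1.93 with PMB and a range from -4.02 to -1.10 with collagen. With collagen, 6 of 7 neutrophil markers, 2 of 3 T cell markers, 3 of 4 epidermis markers and 4 of 5 mast cell markers were called higher, with medians of 1.74, 1.86, 1.37 and 1.05. The first 3 of these lists had PMB medians of 0.21, -0.25 and 0.13, with 1 neutrophil marker called lower. The T cell markers Cd3e, Cd4 and Cd8a and the epidermis markers Krt5, Krt14 and Krt1 had no entry with a value on every array. With PMB, 6 of 7 adipocyte markers and 3 of 5 mast cell markers were called higher, with medians of 1.20 and 1.59, while the adipocyte median with collagen was -0.67 with 1 called lower. Of the 6 measured macrophage markers, 1 was called lower with collagen and 0 with PMB, with medians of -0.46 and -0.23, and the defining markers Cd68 and Csf1r had no named entry. Blood endothelial markers had medians of 0.83 and 0.33, with 1 of 8 called higher with collagen, and fibroblast markers -0.055 and 0.29. The part of these cell types in the ratios of the Fos, Jun and Egr genes was not tested.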

How the data were processed

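Total RNA was amplified and labelled, and 825 ng of each dye's product was hybridized to Agilent whole mouse genome arrays. The authors quantified spots with GenePix Pro 4.1, normalized Cy3 and Cy5 by LOWESS and deposited 1 table of log2 ratios, 1 column per array. The sources used here do not state why entries were left empty or by what rule the 3 scans, taken at different gain, became 1 value.

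The table does not state the direction of its ratios. Cy5 over Cy3 was inferred as likely, from the dye labels, the usual convention of the scanner software and the study's definition of its ratios. The values printed by the study for Mmp9, Mmp10 and Adamts19 match this reading in sign and size. Those printed for Vegfa, of 1 transcript variant, do not match its mean over entries. The opposite reading would turn every sign, including those that match. The sign of replicate 2, which carried the coated extract in Cy3, was reversed. As deposited, the replicates correlated at -0.79 for collagen and -0.66 for PMB over 22380 entries with 4 values. Of 43377 entries, 33651 had 1 gene symbol in the platform annotation, 56 had several and 9670 were not named there. Entries with 4 values were averaged per gene, and the 2 arrays per coating were averaged as 1 replicate, with no further normalization. With so few arrays the precision is limited, and no test between scaffolds was run. The members and lists were chosen with earlier results of these data known. Every member is named, and of each list up to 4 called genes of largest size or, with none called, 1 or 2 of largest size. The code that makes the calls was checked on simulated ratios only. Alternatives covered replicates left out, centring, scaling, entry summaries, entry filters and fold rules. Scaling used limma 3.58.1 in R 4.3.3, and the rest Python 3.11.15 with numpy 2.4.6 and pandas 2.3.3, with plots from matplotlib 3.10.9.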

Additional observations from a re-analysis of the deposited data

Results flagged for a closer look

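The ratios of Jun and Btg2 had opposite signs for the coatings on both arrays of each. Jun was lower with collagen than with PMB by a log2 difference of -0.63, and Btg2 was higher by 0.82. With 1 extract per scaffold the differences were not tested, and as means over all entries neither reached 2-fold. The difference that the study printed for Btg2 was above 2-fold. For Btg2 the opposite sign rests on 2 of its 3 entries.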

How the results depend on the processing

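No paired analysis was possible because each scaffold gave 1 extract and no test was run, and a shared replicate number marks only a shared dye orientation. No called member changed sign under any alternative. On 1 dye orientation alone, 2 to 3 members were called with collagen, 0 to 1 with PMB and 1 to 1 between the coatings, and the medians ran from -0.55 to -0.51, from -0.38 to -0.35 and from -0.46 to -0.080. All these member calls were lower. Of all genes, that rule called 424 to 425 lower with collagen, 178 to 233 with PMB and 467 to 478 between the coatings. With arrays scaled to one spread, the medians were -0.61 with collagen and -0.52 with PMB, 3 members were called with collagen (Fos, Fosb and Egr1) and 2 between the coatings (Fosb and Btg2). The same 2 were called with the median over entries, where the PMB median was -0.49. With each array centred on its median the PMB median was -0.46. With the entry of smallest dye difference the medians were -0.55 with collagen and -0.33 with PMB. At a fold of 1.5, 5 members were called with collagen (Fos, Fosb, Egr1, Egr3 and Atf3), 1 with PMB (Egr3) and 4 between the coatings (Fos, Fosb, Jun and Btg2). Junb, Egr2 between the coatings, and the PMB ratios of Atf3 and Btg2 changed sign under some settings. None of these ratios was called under any setting. Over all genes, scaling turned the 262 called higher and 400 lower with collagen into 377 and 588. With scaling, the 73 and 166 with PMB became 173 and 281, and the 325 and 435 between the coatings became 605 and 696. With PMB 154 were higher without replicate 1, and 46 under a 2-fold rule on every array. At 1.5-fold the 262 and 400 with collagen became 758 and 900, with PMB 512 and 531, and between the coatings 1107 and 1210. Scatter on PMB replicate 2 and genes with 1 entry limit what small ratios can show.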
